A study of Homo sapiens with 36 samples.

Results

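Transcripts of 10 genes that mark contractile and mesenchymal cells were followed through 36 RNA-seq libraries of HepG2-IGF1R-KO cells, out of 57771 genes in the count table. The genes were taken by name. ACTA2, TAGLN, MYL9, CNN1, TPM1 and TPM2 form the contractile set of 6, and VIM, THY1, PDGFRA and PDGFRB the mesenchymal set of 4. All 10 were found in the table and all 10 passed the filter on low counts. HepG2 is a human hepatoma line, the labels call its cells hepatocytes, and in every library the cells carry a knockout of IGF1R, the IGF-1 receptor gene. The labels do not say whether the knockout line is 1 clone, and there are no unedited cells.

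The 4 groups of 9 libraries cross a medium with an insulin stimulation. The insulin-resistant medium, applied over 72 h, held fatty acids at 0.5 mM (palmitic, oleic, linoleic), glucose at 20 mM and human insulin at 1 nM. Cells in that medium were then given 3 nM human insulin for 18 h or left untreated, as were cells in normal medium. No label says that the medium's own insulin was washed out of the untreated cells, so there the stimulated cells may differ from them by dose (3 nM and 1 nM) and not by presence of insulin. The labels name 9 biological replicates a group. Replicates 1 to 3, 4 to 6 and 7 to 9 carry consecutive library position codes and resembled one another, and each such set of 3 is called a triplet here. Nothing says whether the libraries of a triplet came from separate cultures, so p-values over libraries measure a spread that may in part be technical.

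Contractile cells such as smooth muscle and myofibroblasts build actin and myosin filaments from dedicated isoforms. Many of those genes are switched on by serum response factor (SRF) bound to CArG boxes, together with its partner myocardin (MYOCD) or the myocardin-related factors, which respond to actin state and to TGF-beta. Mesenchymal cells are built around the intermediate filament protein vimentin, and platelet-derived growth factors (PDGFs) drive their growth through PDGFRA and PDGFRB. In liver these genes are known from stellate cells, portal fibroblasts and vascular smooth muscle, and hepatocytes are known for keratins 8 and 18 in place of vimentin.

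Promoter sequences are shown because ACTA2 is a classical CArG box gene. It was the member that varied most among the 30 libraries used for the group comparisons below. RefSeq windows of GRCh38.p14 were available for 7 of the 10 members (10 windows). TAGLN, MYL9 and THY1 had no window and were not searched. The search was for CCNNNNNNGG with at most 1 G or C among its 6 inner bases, on both strands, in the 250 bases before the start. Among the 7 members searched it matched only ACTA2, at 2 places, starting 121 and 71 bases before its downstream start. Such a match stood in 7.04% of 35116 windows of the same length, and 2 or more in 0.587%. ACTG2, the enteric smooth muscle actin, also held 2, which start 110 and 73 bases before its start, and VIM is shown as a mesenchymal gene with none. The 200 bases before each start follow, 5′ to 3′ on the gene's strand, with the matches in capitals. They lie at chr10:88952774-88952973 (minus strand) for ACTA2, chr2:73892808-73893007 (plus strand) for ACTG2 and chr10:17228041-17228240 (plus strand) for VIM.
ACTA2: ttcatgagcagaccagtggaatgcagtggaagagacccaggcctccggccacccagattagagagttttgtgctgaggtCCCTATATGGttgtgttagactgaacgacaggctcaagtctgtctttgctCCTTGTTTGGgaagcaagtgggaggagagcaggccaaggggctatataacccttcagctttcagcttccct
ACTG2: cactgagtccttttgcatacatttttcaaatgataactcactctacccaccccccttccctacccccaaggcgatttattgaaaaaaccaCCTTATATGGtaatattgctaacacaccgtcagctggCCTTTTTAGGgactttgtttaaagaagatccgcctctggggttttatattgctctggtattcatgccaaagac
VIM: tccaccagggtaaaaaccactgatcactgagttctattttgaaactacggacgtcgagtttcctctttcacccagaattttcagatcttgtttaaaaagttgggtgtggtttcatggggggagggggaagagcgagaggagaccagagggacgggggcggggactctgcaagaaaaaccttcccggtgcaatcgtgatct
A match is a run of letters and not a measured binding site.

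The members separated 6 libraries from the other 30. COL1A1, a fibrillar collagen gene, was below 10 CPM (counts scaled to a common library total) in 2 triplets. One is untreated replicates 1 to 3 in insulin-resistant medium, the other stimulated replicates 4 to 6 in normal medium. It was at 0.784 to 1.70 CPM there and at 8071 to 31870 CPM in the 30. This split is described without a test. None of the 10 members overlapped between the 6 and the 30, and all were lower in the 6, as were 13.8% of the 17983 genes that passed the filter over all 36 libraries. In bulk RNA, fewer cells of a type and less RNA per cell cannot be told apart. Library totals were 26.6M to 66.9M counts in the 6 and 56.4M to 116.8M in the 30.

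VIM, the vimentin gene, had 4 counts in all 6 libraries together, and 4 of the 6 had none. Its level was 0 to 0.0788 CPM in the 6 against 1459 to 3875 CPM in the 30. THY1, a surface glycoprotein of fibroblasts, had 4 counts and at most 0.0449 CPM in the 6, against 256 to 591 CPM in the 30. These genes were close to absent from the 6. PDGFRA, the receptor for several PDGF dimers, had 1 count in the 6 (up to 0.0327 CPM) against 18.8 to 131.9 CPM in the 30. PDGFRB, the receptor that marks pericytes and fibroblasts, was at 1.63 to 10.8 CPM (median 4.73) in the 6 and at 115 to 453 CPM (median 282) in the 30. It therefore differed from the other mesenchymal members in keeping a countable level, with 1411 counts over the 6.

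The contractile members were all countable in the 6. ACTA2, the smooth muscle alpha-actin, was at 30.1 to 43.9 CPM (median 38.4) against 56.1 to 722 CPM (median 158) in the 30, and the median of the 6 was 24.3% of the median of the 30. It came closest to an overlap, since the lowest of the 30 was 1.28 times the highest of the 6. TPM1, a tropomyosin that lines actin filaments, had the next narrowest gap, with 58.8 to 172 CPM in the 6, against 281 to 2325 CPM in the 30. TAGLN, the actin-binding protein transgelin, was at 24.1 to 77.4 CPM against 383 to 1827 CPM. MYL9, a regulatory myosin light chain, was at 35.5 to 47.7 CPM in the 6 against 249 to 893 CPM in the 30. The widest gaps of the set were those of CNN1 and TPM2. CNN1, the smooth muscle calponin, was at 0.743 to 1.93 CPM in the 6 against 24.0 to 165.6 CPM in the 30. TPM2, the beta-tropomyosin, was at 4.34 to 11.7 CPM against 433 to 2083 CPM. The lowest of the 30 was 37.0 times the highest of the 6.

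**Figure D1:**
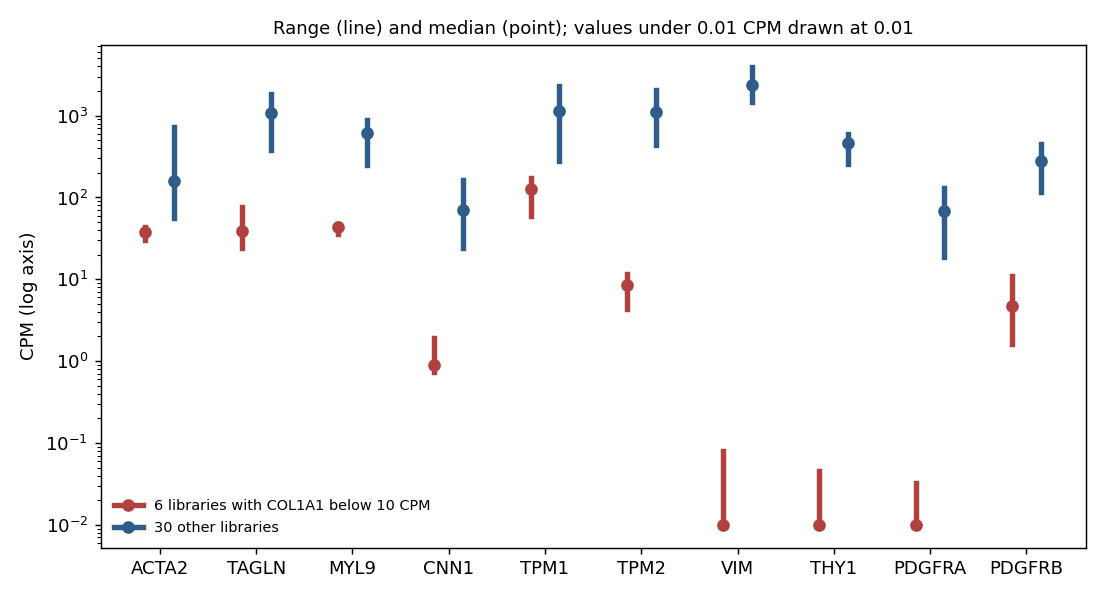
Lowest, median and highest CPM (log axis) of each gene in the 6 libraries with COL1A1 below 10 CPM (red) and in the 30 others (blue). No gene overlaps, and VIM, THY1 and PDGFRA lie at or near 0 in the 6, while ACTA2 reaches 43.9 CPM in the 6 and is at 56.1 CPM or more in the 30.

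The 6 libraries were not alike among themselves. TPM1 was at 172, 162 and 162 CPM in the untreated replicates 1 to 3 in insulin-resistant medium, against 82.6, 58.8 and 90.0 CPM in the stimulated replicates 4 to 6 in normal medium. TAGLN ran the other way, at 25.0, 24.8 and 24.1 CPM in the first triplet and 72.5, 52.1 and 77.4 CPM in the second. PDGFRB followed TAGLN, at 1.63, 1.99 and 2.42 CPM against 10.8, 7.04 and 8.13 CPM. These 2 triplets differ in both medium and insulin, which cannot be told apart here.

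Some other genes of these cell types divided in the same places, and some overlapped. Of MYOCD, the myocardin gene, no count was seen in the 6, against 4.38 to 23.0 CPM in the 30. LMOD1, a smooth muscle leiomodin that nucleates actin, was at 0 to 0.0691 CPM in the 6 against 11.5 to 121 CPM in the 30. SRF itself overlapped, with 80.8 to 124 CPM in the 6, against 74.0 to 138 CPM in the 30. The myosin heavy chain MYH11 and desmin (DES), which mark mature smooth muscle, were low everywhere. MYH11 was at 0.339 to 0.685 CPM in the 6, against 0.257 to 2.15 CPM in the 30, and DES was at 0.0346 to 0.354 CPM in the 6 against 0.241 to 0.868 CPM in the 30. Of the paralogs with wider expression, TPM4 (246 to 371 against 702 to 1730 CPM), MYL12A (107 to 204 against 209 to 456 CPM) and TAGLN2 (18.2 to 51.2 against 174 to 417 CPM) did not overlap between the 6 and the 30. TPM3, at 239 to 389 CPM in the 6, against 271 to 442 CPM in the 30, did.

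The summed CPM of 16 fibroblast markers was 263 to 323 in the 6, against 18820 to 58700 in the 30, and 4 of the 16 were at 0 in all of the 6, among them DCN and FAP. The mesenchymal transcription factors TWIST1 (0 against 9.03 to 52.9 CPM) and PRRX1 (0 to 0.0376 against 48.3 to 233 CPM) behaved likewise. Of 9 pericyte markers, CSPG4 was at 0.0327 to 0.225 CPM in the 6 against 40.0 to 165 CPM in the 30, while RGS5 was at 2.00 to 2.95 CPM in the 6, against 1.61 to 4.27 CPM in the 30. The stellate cell gene LRAT was at 0 in the 6 and at most 0.0625 CPM in the 30. The 9 stellate markers summed to 1394 to 2160 CPM in the 6 against 646 to 1417 CPM in the 30, almost all of it RELN (1360 to 2090 against 632 to 1360 CPM). Hepatocyte markers had the opposite order. The 21 of them summed to 39300 to 44730 CPM in the 6, against 14230 to 37220 CPM in the 30, with KRT8 at 1440 to 1580 CPM against 452 to 1110 CPM and ALB at 8640 to 12900 CPM against 3130 to 10500 CPM. Hepatocyte marker transcripts were seen in every library, and the 30 also held far more of many transcripts known from mesenchymal cells. IGF1R was at 77.8 to 95.8 CPM in the 6, against 78.2 to 134 CPM in the 30, and gene counts do not check the edit. The part of any second cell type in these levels was not tested.

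The 7 endothelial markers found summed to at most 2.29 CPM in the 6, against 4.71 CPM in the 30, and KDR was at or near 0 throughout. The 9 skeletal and cardiac muscle markers summed to 7.09 to 9.24 CPM in the 6, against 2.90 to 7.75 CPM in the 30. The 8 leukocyte markers summed to 732 to 2449 CPM in the 6, against 343 to 1545 CPM in the 30, with PTPRC, which defines leukocytes, at 0 in the 6 and at most 0.433 CPM in the 30. CD3E and CD14 were at 1.82 CPM or less throughout and CD68 at 44.2 CPM or less, so other genes of the list made up most of the sum. The 6 cholangiocyte markers found summed to 1079 to 1830 CPM in the 6, against 806 to 1589 CPM in the 30. Of these, KRT7 was at 0.0299 to 0.449 CPM in the 6, against 64.2 to 537 CPM in the 30. KRT19 (534 to 1170 against 274 to 1120 CPM) and SOX9 (246 to 309 against 110 to 199 CPM) ran the other way, though KRT19 overlapped. The 7 surface markers used for mesenchymal stem cells summed to 737 to 1034 CPM in the 6 against 2084 to 4404 CPM in the 30.

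**Figure D2:**
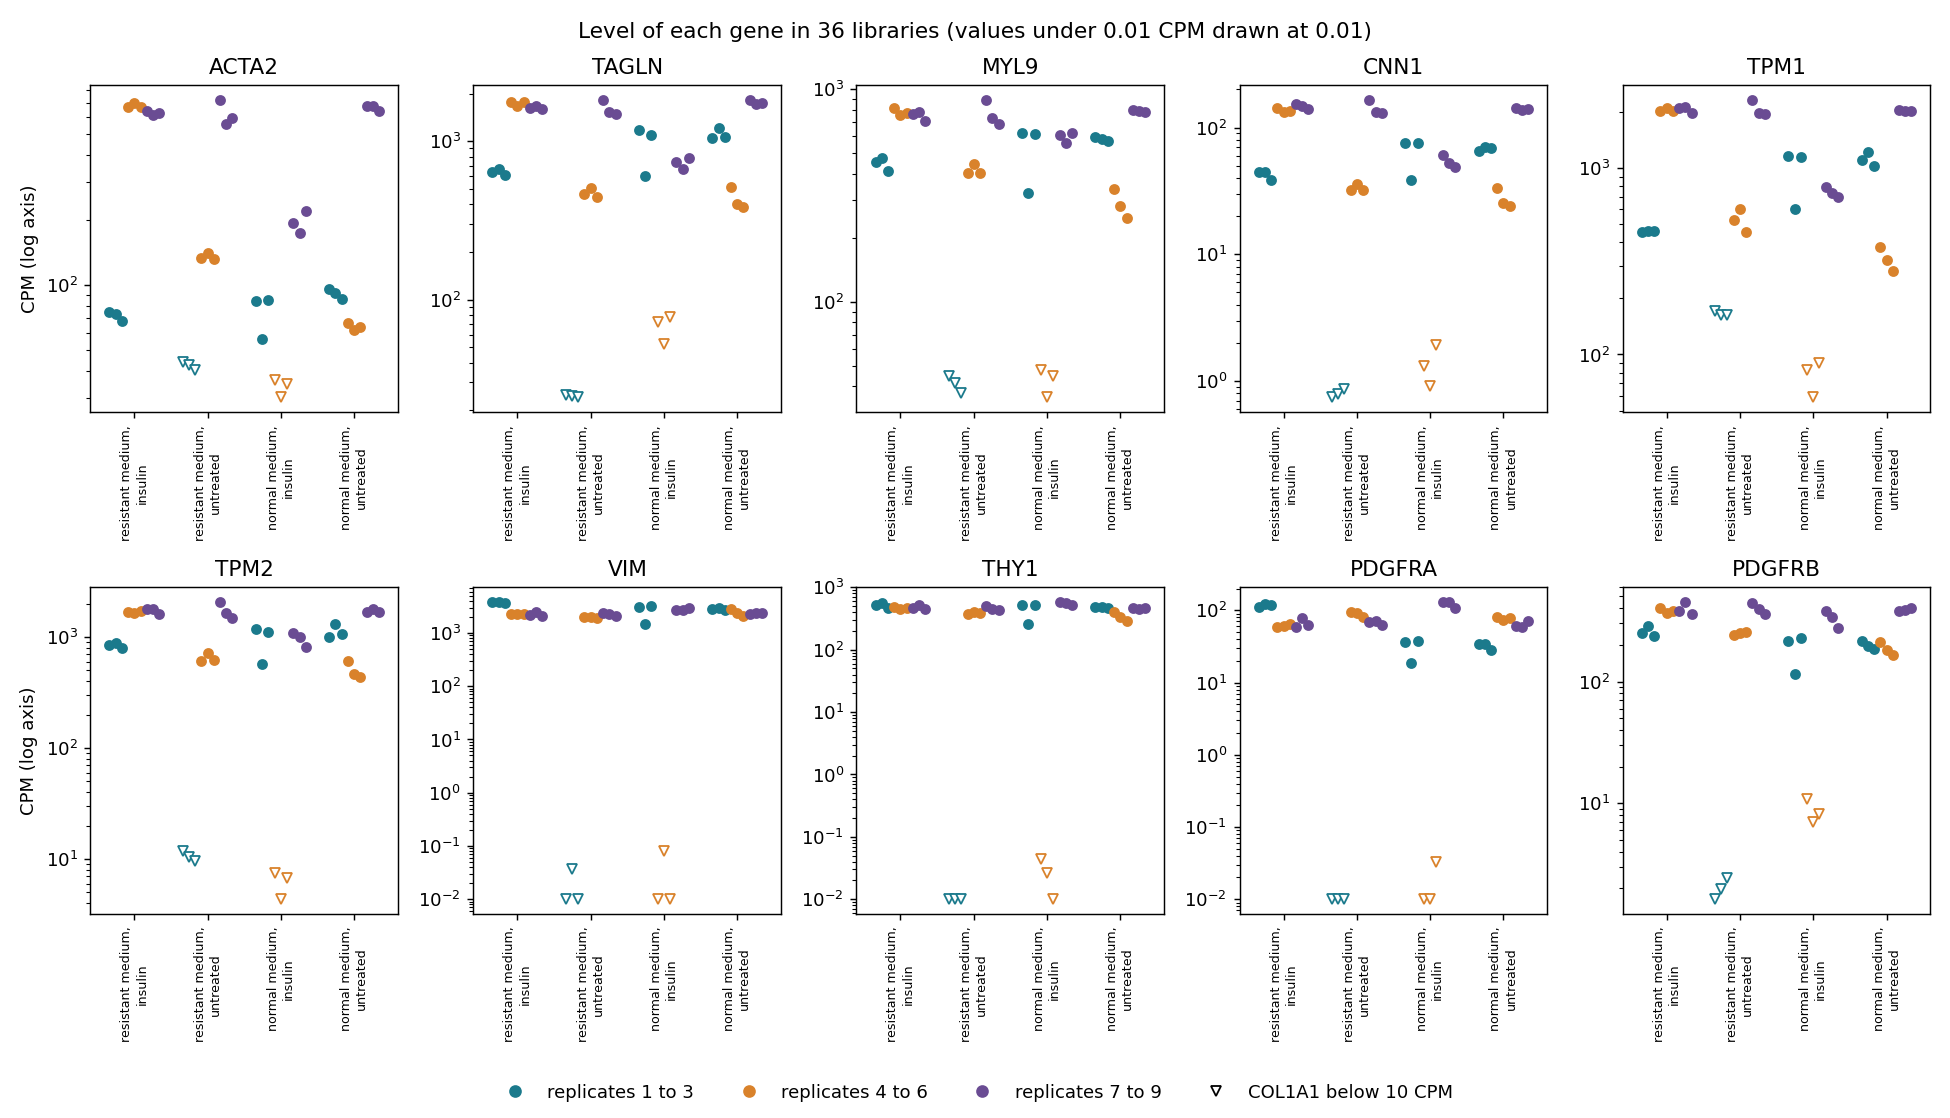
CPM (log axis) of each member in all 36 libraries by group, with colour for the triplet and open triangles for the 6 libraries with COL1A1 below 10 CPM. Points of a triplet lie together, and triplets of a group often lie apart, as for ACTA2 in untreated cells in normal medium (62.0 to 95.3 CPM in replicates 1 to 6, 644 to 679 CPM in replicates 7 to 9).

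Within the 30 libraries the members varied more between triplets than between groups. Of the spread of log2(CPM + 0.5), the share between triplets of a group was 41.5% to 91.7% (median 80.8%) over the 10 members. The share between the 4 groups was 5.38% to 20.5% (median 11.7%), and that within triplets 0.671% to 45.1% (median 8.43%). TPM1 had the highest share between triplets and THY1 the lowest. For THY1 and VIM much of the rest lay within triplets (45.1% and 34.7%).

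**Figure D3:**
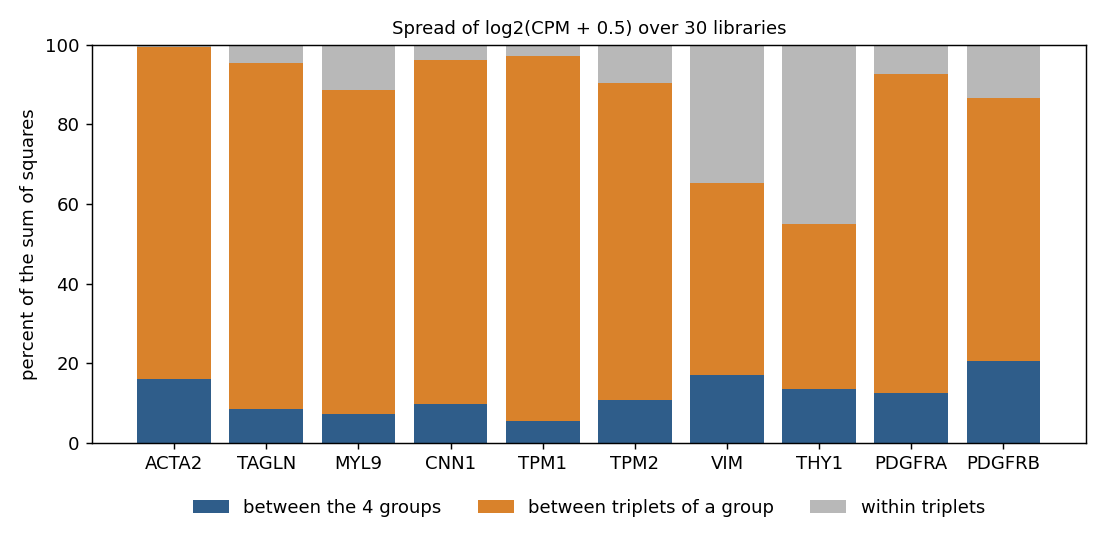
Sum of squares of log2(CPM + 0.5) over the 30 libraries, split for each member into the part between the 4 groups, between triplets of a group and within triplets, as percent. The part between triplets is 83.2% for ACTA2, 91.7% for TPM1 and 41.5% for THY1.

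ACTA2 showed the widest range. In insulin-resistant medium with insulin its triplets averaged 72.0 ± 3.69, 677 ± 18.6 and 628 ± 11.4 CPM (SD, n = 3 each, replicates 1 to 3, 4 to 6 and 7 to 9). In untreated cells of that medium the 2 triplets among the 30 averaged 136 ± 4.95 CPM (replicates 4 to 6) and 624 ± 87.4 CPM (replicates 7 to 9). In normal medium with insulin the 2 triplets averaged 75.0 ± 16.4 CPM (replicates 1 to 3) and 196 ± 23.1 CPM (replicates 7 to 9). Untreated cells in normal medium averaged 90.9 ± 4.64, 64.0 ± 2.26 and 667 ± 19.9 CPM over their 3 triplets. A high triplet thus occurred in each group except insulin-stimulated cells in normal medium, and the highest triplet mean was 10.6 times the lowest. That ratio was 6.39 for TPM1, 5.32 for CNN1, 4.07 for TAGLN, 3.95 for PDGFRA, 3.45 for TPM2, 2.72 for MYL9, 2.14 for PDGFRB, 1.91 for VIM and 1.62 for THY1.

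The 4 triplets high in ACTA2 were high in every contractile member and in FN1, the fibronectin gene. FN1 was at 30770 to 37330 CPM in these 12 libraries, against 11440 to 16630 CPM in the other 18. All 6 contractile members were higher in each of the 12 than in any of the 18, as were 2.29% of 18230 genes. The 12 were picked by their ACTA2 and FN1 levels, so the separation of ACTA2 was fixed by the choice. They are 4 triplets and not 12 independent samples. ACTA2 was at 555 to 722 CPM in the 12 against 56.1 to 221 CPM in the 18, TAGLN at 1482 to 1827 against 383 to 1211 CPM, and CNN1 at 129 to 165.6 against 24.0 to 75.8 CPM. MYL9 had the narrowest gap, at 687 to 893 CPM in the 12 against 249 to 626 CPM in the 18. None of the 4 mesenchymal members was divided in this way. VIM was at 2069 to 2500 CPM in the 12, against 1459 to 3875 CPM in the 18, and PDGFRA at 58.2 to 78.0 CPM against 18.8 to 131.9 CPM. PDGFRB came closest, at 356 to 453 CPM (median 386) in the 12, against 115 to 377 CPM (median 232) in the 18. The 12 libraries are a description of these data and not a group of the study.

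Each member was also set to VIM in the same library. ACTA2 then stood at 279 to 298 counts per 1000 VIM counts (triplet means) in the 4 high triplets. In the other 6 triplets it was between 19.1 and 69.6. PDGFRA had another order, with the highest ratios in untreated replicates 4 to 6 in insulin-resistant medium (45.3) and stimulated replicates 7 to 9 in normal medium (44.0). Its lowest were in replicates 1 to 3 of normal medium, at 12.2 with insulin and 11.3 without.

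Over the 9 members other than VIM, some triplets had nearly the same ratios although their groups differ. Of 45 pairs of triplets, 9 differed by less than 1.5 times in every one of the 9 ratios, and the next pair differed by 2.55 times in one. Those 9 pairs were the 6 among the 4 high triplets (at most 1.12 times) and 3 others. One joined replicates 1 to 3 of stimulated and untreated cells in normal medium (at most 1.09 times). Another joined untreated replicates 4 to 6 in insulin-resistant medium with stimulated replicates 7 to 9 in normal medium (at most 1.14 times). The last joined stimulated replicates 1 to 3 in insulin-resistant medium with untreated replicates 4 to 6 in normal medium (at most 1.41 times, in ACTA2). The triplets thus fell into 4 profiles, and each profile held triplets of more than 1 group.

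**Figure D4:**
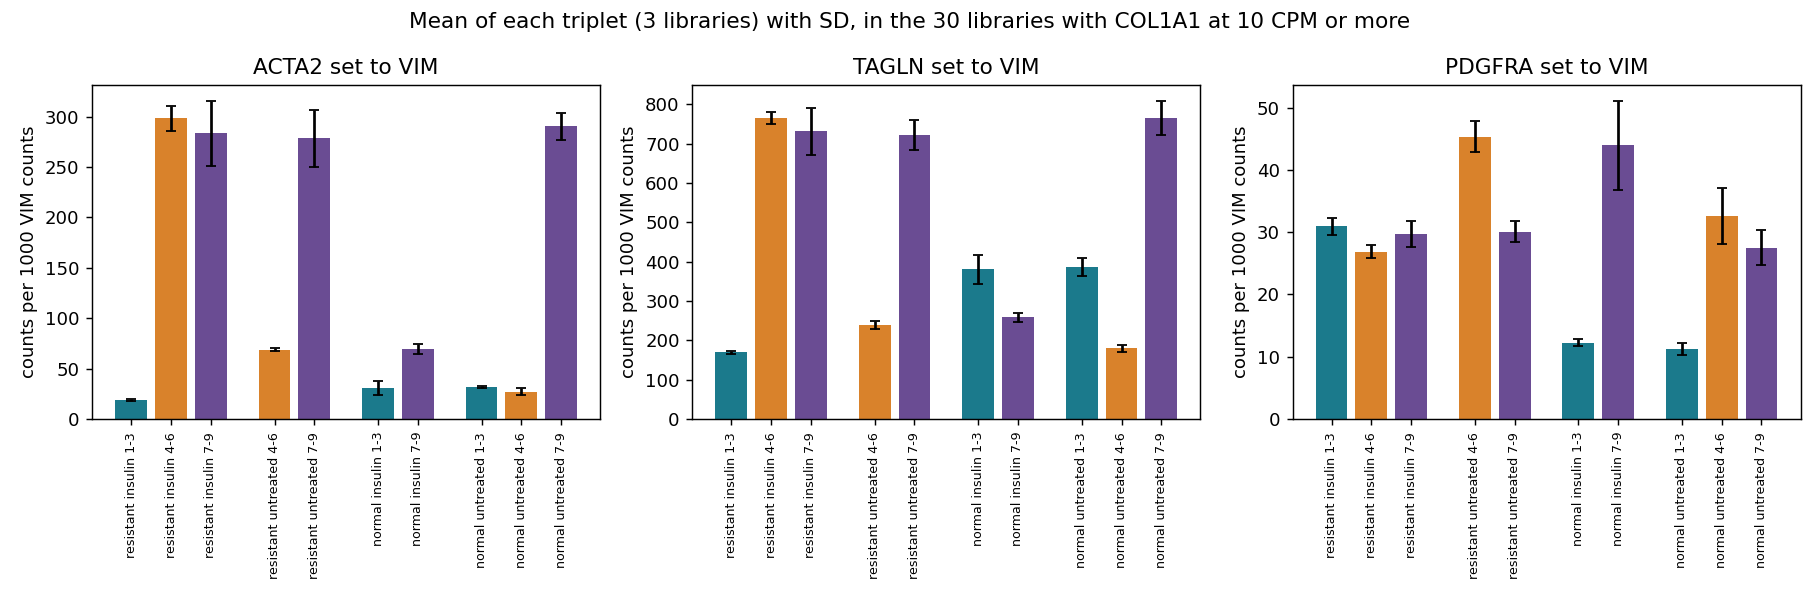
Counts of ACTA2, TAGLN and PDGFRA per 1000 VIM counts in the 10 triplets among the 30 libraries (bars, mean; error bars, SD, n = 3). ACTA2 is at 279 to 298 in the 4 high triplets and at 69.6 or less in the others, while PDGFRA is lowest in replicates 1 to 3 of normal medium.

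The comparisons of the design were made over the 30 libraries with a batch term. The 24 May libraries among them all lie outside the high triplets, and stimulated cells in insulin-resistant medium had none from that date. Batch and triplet are thus partly confounded in this fit. None of the 10 members passed an adjusted p of 0.05 in any of the 5 comparisons (edgeR's quasi-likelihood test, Benjamini-Hochberg over 18230 genes). Of all genes tested, 15.4% were called higher and 18.1% lower with insulin in normal medium. In insulin-resistant medium insulin gave 0% higher and 0% lower, with 964 genes at an unadjusted p under 0.05 and none called by DESeq2 either. Insulin-resistant against normal medium gave 10.7% higher and 16% lower in untreated cells, and 17.8% higher and 18.2% lower in insulin-stimulated cells. The interaction takes the insulin effect of normal medium from that of insulin-resistant medium, and it gave 12.4% higher and 9.37% lower. With the counts of each triplet summed to 1 sample, no member passed in any comparison, and the genes called numbered 1101, 0, 608, 926 and 76 in the same order. Those were 5.3%, 0%, 2.93%, 4.46% and 0.366% of the genes tested in that fit. Replicate 2 of insulin-stimulated cells in normal medium had all 10 members at 46.6% to 66.4% of the mean of the 2 other libraries of its triplet. Without it, THY1 (0.19 on the log2 scale) and PDGFRA (0.79) were called higher with insulin in normal medium, as were 14.5% of all genes. Without the 12 libraries high in FN1, which left 1 triplet for each group in insulin-resistant medium, 6 members were called lower in that medium in stimulated cells, where 21.2% of all genes were. The same fit called 1 member higher with insulin in normal medium (21.5% of genes), 3 lower with it in insulin-resistant medium (1.15%), 2 higher for the medium in untreated cells (8.82%) and 5 lower in the interaction (12.2%). Medium, insulin, triplet and batch date cannot be told apart in it.

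Scaling to hepatocyte markers in place of TMM moved the median log2 fold change of all genes by up to 0.52, with 11018 genes called higher and 1054 lower with insulin in normal medium. It gave 12910 higher and 415 lower for the medium in untreated cells, 4216 and 1507 in insulin-stimulated cells, and 776 and 7641 for the interaction. Under that scaling 9 of the 10 members were called higher in insulin-resistant medium in untreated cells, where VIM was the exception, and so were 70.8% of all genes. Their median was 0.87 against 0.50 for all genes. The main scaling had called no member there. It had called 14 of the 21 hepatocyte markers lower in that comparison (median log2 fold change -0.38). Counts alone cannot tell a fall of these markers from a rise of the other genes, and this was not tested.

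ACTA2 had the largest fitted differences. In normal medium it was at 56.1 to 221 CPM with insulin (median 130, mean 136 ± 68.9 SD, n = 6) and 62.0 to 679 CPM without (median 91.3, mean 274 ± 295 SD, n = 9). The log2 fold change was -1.06 ± 0.57 (SE, edgeR adjusted p = 0.164; 95% interval -2.18 to 0.06). In insulin-resistant medium it was at 67.8 to 699 CPM with insulin (median 630, n = 9) and 132 to 722 CPM without (median 348, n = 6). The fitted value, with the batch term, was -0.69 ± 0.65 (edgeR adjusted p = 0.934), below 0 although the stimulated libraries had the higher mean (459 ± 291 against 380 ± 273 CPM, SD). It was above 0 with no batch term, and batch and triplet cannot be fully told apart here. All these ranges overlap. For insulin-resistant against normal medium it was 0.82 ± 0.56 in untreated cells (edgeR adjusted p = 0.295) and 1.19 ± 0.64 in insulin-stimulated cells (edgeR adjusted p = 0.151). The interaction was 0.37 ± 0.86 (edgeR adjusted p = 0.822; 95% interval -1.32 to 2.06).

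Within single batches the ACTA2 difference with insulin in normal medium was -1.59 ± 0.89 in the 22 April batch, -0.79 ± 1.4 in the 11 April batch and -0.02 ± 0.11 in the 24 May batch (SE). In insulin-resistant medium it was -1.28 ± 1.1 and -0.08 ± 1.19 in the April batches. For the medium in untreated cells it was 0.74 ± 1.04, 0.68 ± 1.32 and 1.11 ± 0.08, the last with an edgeR adjusted p of 1.97e-06. Stimulated cells in normal medium had 1 library in the 11 April batch and 1 in the 24 May batch, and untreated cells in insulin-resistant medium had 1 in the 11 April batch. Each such lone library was assumed to vary like the other groups. In the May batch each medium had 1 triplet of untreated cells, so medium and triplet cannot be told apart there. For the medium in insulin-stimulated cells it was 1.05 ± 0.93 and 1.39 ± 1.34 in the April batches, and the interaction was 0.31 ± 1.42 and 0.71 ± 1.84.

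The other contractile members lay closer to 0. TAGLN had medians of 1619 CPM with insulin and 993.6 CPM without in insulin-resistant medium, and 758 and 1057 CPM in normal medium, with ranges that overlapped throughout (383 to 1827 CPM over all 4 groups). MYL9 had a log2 fold change of -0.37 ± 0.19 with insulin in insulin-resistant medium (edgeR adjusted p = 0.915), from 414 to 818 CPM with insulin and 406 to 893 CPM without. Its mean was higher with insulin there (661 ± 163 CPM, n = 9, against 596 ± 205 CPM, n = 6, SD), and with summed triplets, which carry no batch term, the value was 0.14. CNN1 was at 38.4 to 152 CPM with insulin and 32.2 to 165.6 CPM without in that medium, and at 38.4 to 75.8 CPM with insulin and 24.0 to 144 CPM without in normal medium. The group medians of all these genes were highest in stimulated cells in insulin-resistant medium, where 6 of 9 libraries belong to the high triplets. TPM1 had medians of 2018, 1276, 765 and 1101 CPM in the order stimulated and untreated in insulin-resistant medium, then stimulated and untreated in normal medium. TPM2 had 1632, 1101, 1039 and 1061 CPM in that order. Over the 6 contractile members the median log2 fold change was -0.34 and -0.35 with insulin in normal and insulin-resistant medium, and 0.34 and 0.26 for the medium in untreated and stimulated cells. With summed triplets and no batch term, all 6 were above 0 with insulin in insulin-resistant medium (0.14 to 0.34).

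Among the mesenchymal members VIM and THY1 were the tightest. VIM was at 2071 to 3875 CPM with insulin and 1908 to 2395 CPM without in insulin-resistant medium, and at 1459 to 3213 CPM with insulin and 2061 to 2942 CPM without in normal medium. Its 95% interval with insulin in normal medium was -0.23 to 0.24 on the log2 scale. THY1 was at 446 to 553 CPM with insulin and 370 to 505 CPM without in insulin-resistant medium, and its interaction was -0.16 ± 0.11 (edgeR adjusted p = 0.328). The intervals for these genes are narrower than for ACTA2, and they too include 0. PDGFRA had group medians of 64.3 and 76.7 CPM in insulin-resistant medium with and without insulin, and 72.5 and 60.3 CPM in normal medium. PDGFRB was at 242 to 443 CPM in insulin-resistant and 167 to 404 CPM in normal medium in untreated cells. Its log2 fold change there was 0.45 ± 0.20 (edgeR adjusted p = 0.0969), the lowest adjusted p of any member in the 5 comparisons.

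Over all 10 members the median log2 fold change was -0.23 with insulin in normal medium, against -0.01 for all genes, and -0.32 in insulin-resistant medium, against 0.00. It was 0.34 for the medium in untreated cells (all genes -0.02), 0.25 in insulin-stimulated cells (0.01) and -0.09 for the interaction (0.02). With no batch term the median turned to 0.25 with insulin in insulin-resistant medium and to 0.38 for the interaction, and with summed triplets to 0.22 and 0.41. Exact two-sided permutation tests over triplet means, 3 triplets against 2, cannot go below 0.2. Of the 40 tests for the members, 2 reached that value and none went lower.

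**Figure D5:**
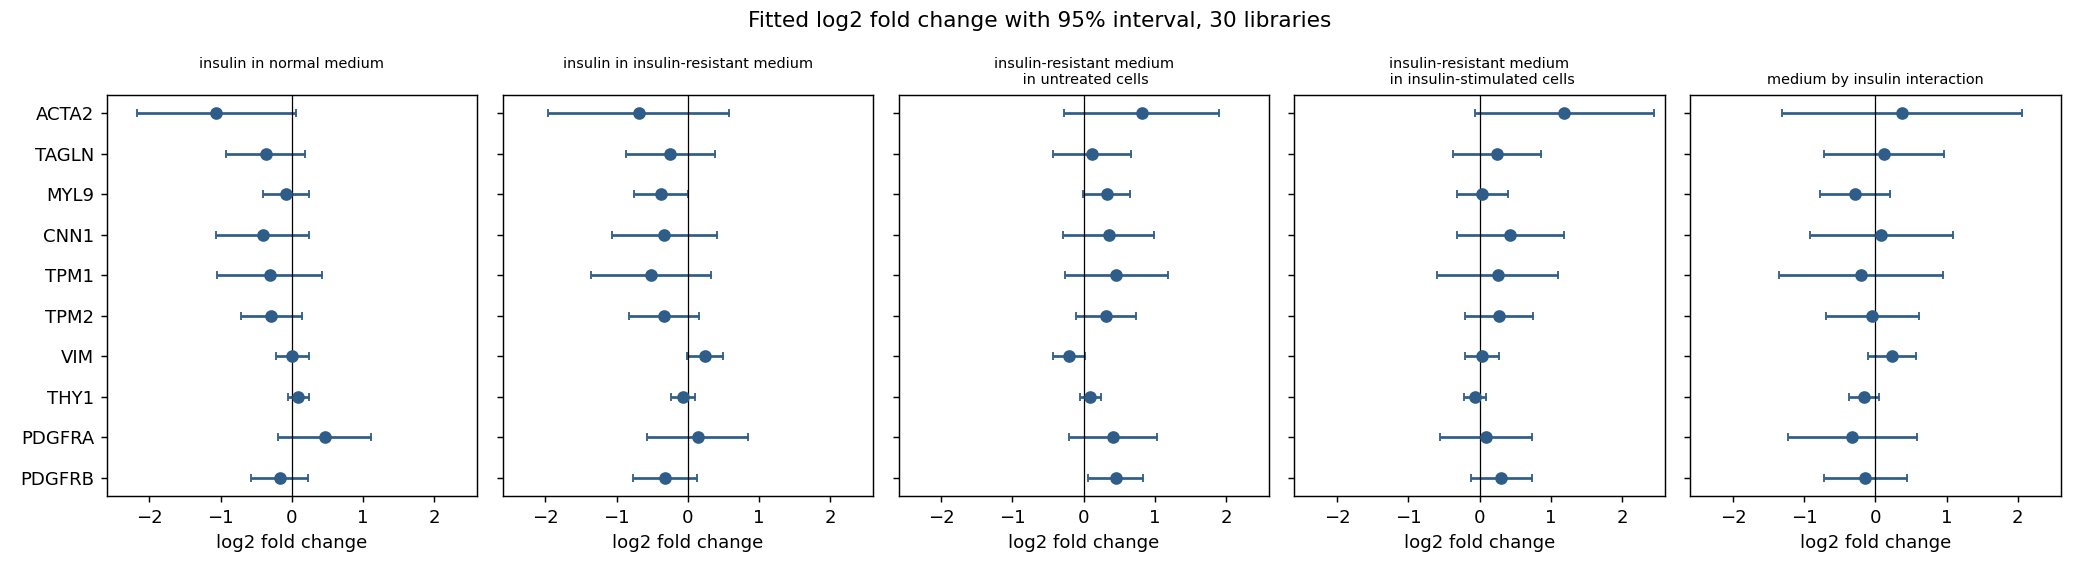
Log2 fold change of each member in the 5 comparisons over 30 libraries, with 95% intervals. The intervals are a normal approximation, from standard errors derived from edgeR's F statistic. Every interval includes 0 but that of PDGFRB for insulin-resistant medium in untreated cells (0.06 to 0.84), which did not pass after adjustment over all genes.

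Ligands and regulators of the pathway were read from lists chosen by function. For all list counts below, the share of all genes was 15.4% higher and 18.1% lower with insulin in normal medium. It was 10.7% and 16% for the medium in untreated cells, 17.8% and 18.2% in stimulated cells, and 12.4% and 9.37% in the interaction. Of the 4 PDGF ligands, PDGFB, a ligand of both receptors, followed the groups. It was at 5.53 to 8.93 CPM with insulin and 5.93 to 12.8 CPM without in insulin-resistant medium, and at 1.04 to 1.99 CPM with insulin and 2.49 to 4.85 CPM without in normal medium. The groups of either medium did not overlap with those of the other, nor did those with and without insulin in normal medium. PDGFB fell with insulin in normal medium, by a log2 fold change of -1.01 ± 0.09 (edgeR adjusted p = 1.87e-09, and 0.0471 with summed triplets). It was higher in insulin-resistant medium, by 1.33 ± 0.09 in untreated cells (edgeR adjusted p = 1.66e-12, and 0.0160 summed) and 2.20 ± 0.10 in stimulated cells (edgeR adjusted p = 2.42e-15, and 0.00561 summed). The interaction, 0.88 ± 0.14, passed over libraries (edgeR adjusted p = 2.43e-05) but not with summed triplets (edgeR adjusted p = 0.562). In the 6 libraries left out of these fits PDGFB was at 15.2 to 17.1 CPM in untreated cells in insulin-resistant medium and 2.50 to 3.30 CPM in stimulated cells in normal medium.

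The other ligands gave weaker calls. PDGFD was higher with insulin in normal medium (1.68 ± 0.48 on the log2 scale, edgeR adjusted p = 0.00727) and PDGFA in insulin-resistant medium in untreated cells (0.50 ± 0.19, edgeR adjusted p = 0.0491), and neither passed with summed triplets (edgeR adjusted p = 0.520 and 0.895). PDGFC passed in no comparison. Of 14 TGF-beta ligands, receptors and SMADs, 1 rose and 1 fell with insulin in normal medium, 2 rose with the medium in untreated cells, and 1 rose and 1 fell with it in stimulated cells. TGFBR2, a TGF-beta receptor, rose by 0.23 ± 0.05 and 0.25 ± 0.05 in the insulin and the untreated comparison (edgeR adjusted p = 0.00115 and 0.000798). It passed in neither with summed triplets (edgeR adjusted p = 0.433 and 0.268). Of 10 SRF and myocardin factors, 2 rose and 2 fell with insulin in normal medium, 1 rose with the medium in untreated cells, 2 rose in stimulated cells and 1 in the interaction. SRF, MYOCD and MRTFA were not among them. With summed triplets 1 of the 10 passed for the medium in untreated cells and 1 in stimulated cells, beside 2.93% and 4.46% of all genes.

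Of 30 other contractile genes, 1 rose and 1 fell with insulin in normal medium, 3 rose and 1 fell with the medium in untreated cells, 2 fell in stimulated cells and 1 rose in the interaction. Among the 3 were the light chains MYL12A (0.28 ± 0.09 on the log2 scale, edgeR adjusted p = 0.0226) and MYL12B (0.21 ± 0.06, edgeR adjusted p = 0.00999), neither of which passed with summed triplets (edgeR adjusted p = 0.907 and 0.901). In that fit 1 of the 30 passed for the medium in untreated cells and 1 in stimulated cells, beside 2.93% and 4.46% of all genes. Of 16 fibroblast markers, 4 rose with insulin in normal medium, 1 rose with the medium in untreated cells, 2 fell in stimulated cells and 2 fell in the interaction, and none passed with summed triplets. Of 10 mesenchymal transcription factors tested, 1 fell with insulin in normal medium, 1 fell with the medium in untreated cells (PRRX1, -0.72 ± 0.26, edgeR adjusted p = 0.0370, and 0.611 with summed triplets) and 1 rose in stimulated cells. None of them passed with summed triplets. Of 7 pericyte markers tested, 1 rose with insulin in normal medium, 1 rose and 1 fell with the medium in untreated cells, and 1 rose in stimulated cells. RGS5, a pericyte gene, was the one that fell (-0.54 ± 0.17, edgeR adjusted p = 0.0198, and 0.567 with summed triplets). Another of the pericyte markers, 1 of the 7, passed with summed triplets for the medium in untreated cells, and none in the other comparisons.

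Of 7 stellate markers tested, 1 rose with insulin in normal medium, and 2 rose and 1 fell with the medium in either state. The one with insulin was HGF, at no more than 2.07 CPM in any library (3.68 ± 0.99, edgeR adjusted p = 0.00459, and 0.674 with summed triplets). With summed triplets 1 stellate marker passed for the medium in untreated cells and 1 in stimulated cells. Of 6 mesenchymal stem cell surface markers, 2 fell with the medium in untreated and 1 in stimulated cells. Of 8 other intermediate filament genes, 2 rose and 1 fell with insulin in normal medium, 2 rose with the medium in untreated and 3 in stimulated cells, and 1 rose and 2 fell in the interaction. With summed triplets 1 of the 8 passed with insulin in normal medium and 1 for the medium in stimulated cells. KRT8 rose by 0.47 ± 0.08 with insulin in normal medium (edgeR adjusted p = 1.76e-05, and 0.371 summed). In the same comparison 14 of 21 hepatocyte markers fell, as did 14 (with 1 that rose) for the medium in untreated cells, 4 rose and 8 fell in stimulated cells, and 9 rose in the interaction. With summed triplets 4, 4, 3 and 0 of them passed, beside 5.3%, 2.93%, 4.46% and 0.366% of all genes. None of the genes of any list passed with insulin in insulin-resistant medium.

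Of 8 epithelial junction genes, 2 rose and 4 fell with insulin in normal medium, 4 rose with the medium in untreated cells, 5 rose and 1 fell in stimulated cells, and 2 rose and 2 fell in the interaction. Of 4 endothelial markers tested, 3 fell with insulin in normal medium, 3 fell with the medium in untreated cells, 1 rose in stimulated cells and 3 rose in the interaction. Of 7 leukocyte markers, 2 fell, then 2 rose and 3 fell, 3 rose and 4 rose in that order of comparisons. Of 5 cholangiocyte markers, 1 rose, then 2 rose and 1 fell, 2 rose and 1 fell, and 1 fell in that order. Of 4 skeletal and cardiac muscle markers, 2 fell, 1 fell, 1 rose and 1 fell, and 1 rose in that order. With summed triplets 2, 2, 2 and 0 of the junction genes passed in that order, 2, 1, 0 and 0 of the endothelial, 2, 1, 2 and 0 of the leukocyte and 2, 1, 0 and 0 of the muscle markers, and no cholangiocyte marker passed. The shares of all genes in that fit were 5.3%, 2.93%, 4.46% and 0.366%.

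The genes whose pattern over the 30 libraries was most like the mean of the contractile members (log2(CPM + 0.5), genes at a mean of 5 CPM or more) were TSC22D3 (Pearson's r = 0.994), SPARC (0.991), NNMT (0.991), ENSG00000250588 (0.990) and AMIGO2 (0.988). SPARC encodes a matrix glycoprotein and ran from 1733 to 7636 CPM. For the mesenchymal members they were CALHM2 (0.964), BNC2 (0.943), SNX19 (0.932), SMARCD3 (0.929) and IFT43 (0.922). The 30 points share triplets, so these values describe 10 triplets more than 30 samples.

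Some members lie over genes on the other strand, and the strand setting of the counting is not given in the sources used here. FAS, opposite ACTA2, was at 20.6 to 35.9 CPM in the 30 libraries, PCSK7, opposite TAGLN, at 37.9 CPM or more, and VIM-AS1 at 2.46 to 15.5 CPM. Reads of such pairs could be split by the counting, which was not tested.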

How the data were processed

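Transcripts were measured by poly-A RNA-seq with a strand-specific kit, per the labels' protocols. The authors deposited expected counts, estimated reads for each Ensembl gene, in part fractional, and STAR, Salmon and GRCh37 are named in the submitters' processing notes. Their versions, the annotation and the strand setting were not given in the sources used here. Values were rounded, since 15.5% were not whole. Symbols came from GENCODE 29 by Ensembl identifier (51994 genes, 90.0%). Libraries held from 26.6M to 116.8M counts, with a median of 64.6M, so 1 CPM stood for at least 26.6 counts. CPM is per library total.

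The fit used edgeR 4.0.16 in R 4.3.3 (TMM, filterByExpr, robust quasi-likelihood F-test) with 1 mean for each group and the labelled batch dates as a term on the 30 libraries with COL1A1 at 10 CPM or more. Standard errors of edgeR fits were derived from the log2 fold change and the F statistic, and intervals use a normal approximation. The script was tested on simulated counts. DESeq2 1.42.0, other scalings and filters, no batch term, a replicate block, summed triplets, single batches, all 36 libraries and leaving out each library were alternatives. No pair of replicates agreed within sampling noise (144 pairs, lowest chi-square per gene 4.20). The members, the 18 gene lists (182 of 184 genes found) and the named genes (regulators, ligands, paralogs and cell markers picked by function, plus 5 genes most alike per set) were chosen with earlier results of these data known. Promoters are RefSeq's, GRCh38.p14. No coordinates of the count table are used.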

Additional observations from a re-analysis of the deposited data

Results flagged for a closer look

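In insulin-stimulated cells in normal medium, replicate 2 stood apart from the other 5 libraries with COL1A1 at 10 CPM or more in 3 members. MYL9 was at 325.8 CPM there (the others 556.5 to 626.4), VIM at 1459 CPM (2713 to 3213) and THY1 at 256.2 CPM (518.1 to 590.6). The gap to the nearest library was 0.768, 0.715 and 0.783 of the whole range, above the limit for 6 samples. Such a check was made in 40 groups of libraries, and 3 were flagged, all for this 1 library. The members vary together and the libraries come in triplets, so the nominal chance rate of about 1 in 20 does not hold here.

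Beside the 2 other libraries of its triplet, replicate 2 had all 10 members at 46.6% to 66.4% of their mean (median 51.5%), with ACTA2 at the top of that range and VIM at the bottom. COL1A1 was at 49.4% and FN1 at 92.9%. Set to VIM, TAGLN was at 415 counts per 1000 VIM counts in replicate 2, against 386 and 342 in replicates 1 and 3. The library comes from the 24 May batch and its triplet partners from 22 April, and a part of the batch in these values was not tested. Without it, THY1 and PDGFRA passed as higher with insulin in normal medium (log2 fold changes of 0.19 and 0.79), which they did not with it (0.09 and 0.46).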

How the results depend on the processing

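Of 763 recomputed values, 696 kept their direction and their side of the threshold or stayed within their spread. Most came from leaving out 1 library, where 538 of 540 did so. In the other settings 158 of 223 did, while 38 moved in value or count, 9 passed the threshold only there and 18 turned in sign. Leaving out 1 library at a time gave 0 to 2 members called with insulin in normal medium, 2 without stimulated replicate 2, and 0 in the other comparisons. It turned ACTA2 in the interaction to -0.15 without stimulated replicate 4 in insulin-resistant medium (-0.15 to 0.63 over all such fits). Scaled to hepatocyte markers, 3 members were called with insulin in normal medium (66.2% of all genes), 9 for the medium in untreated cells (73.1%) and 2 in the interaction (46.2%), where ACTA2 was at -0.07. The 22 April batch gave 1 member with insulin in normal medium (15.3% of all genes). The 24 May batch gave 6 there (34.9%) and 5 for the medium in untreated cells (23.5%), from 1 library against 1 triplet and from 1 triplet against 1 triplet. It allowed no other comparison.

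With the replicate number as a block, 2 members (ACTA2 and PDGFRB) were called higher for the medium in stimulated cells (17% of all genes), ACTA2 and MYL9 with insulin in insulin-resistant medium turned to 1.03 and 0.34, and THY1 in the interaction to 0.11. No other call of a member changed. Same-numbered libraries of different groups had correlations of -0.34 to 0.59 (median 0.09, 36 pairs), and other pairs -0.58 to 0.53 (median -0.03, 297 pairs). These overlapping ranges do not settle whether the numbers pair the samples.

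With all 36 libraries ACTA2 and MYL9 with insulin in insulin-resistant medium were at 0.16 and 0.41, PDGFRB for the medium in untreated cells at -0.16 and THY1 in the interaction at 1.06. With no batch term those insulin values of ACTA2 and MYL9 were 0.30 and 0.17, and with summed triplets 0.27 and 0.14, with THY1 at 0.01. The median over the 10 members turned as well. With insulin in insulin-resistant medium it was 0.50 with all 36 libraries, 0.25 with no batch term, 0.45 with the replicate block, 0.22 with summed triplets and 0.03 in the 11 April batch. In the interaction it was 1.18, 0.38, 0.63, 0.41 and 0.44 in that order, and 0.05 to 0.07 without 1 of 3 libraries. With insulin in normal medium it was 0.20 scaled to hepatocyte markers, 0.16 in the 24 May batch and 0.21 without the 12 libraries below. For the medium in untreated cells it was -0.26 with all 36 libraries and close to 0 with the replicate block, and -0.59 in stimulated cells without those 12. In the 11 April batch MYL9 was at 0.04 and THY1 at 0.01. The cause was not tested.

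A fit without the 12 libraries with FN1 above 25000 CPM was chosen after seeing the data. It called 1 member (higher) with insulin in normal medium, 3 (all lower) in insulin-resistant medium, 2 (higher) for the medium in untreated cells, 6 (all lower) in stimulated cells and 5 (all lower) in the interaction, beside 21.5%, 1.15%, 8.82%, 21.2% and 12.2% of all genes in those directions. ACTA2 turned to 0.66 with insulin in normal medium, -1.19 for the medium in stimulated cells and -2.44 in the interaction. This fit has 1 triplet for each group in insulin-resistant medium. The untreated triplet comes from the 24 May batch and the stimulated one from the April batches. Medium, insulin, triplet and batch date therefore cannot be told apart there.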
